A study of Saccharomyces cerevisiae with 118 samples.

Results

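Wild-type MEP diploid cells aged for 48 h on galactose were compared here with the same strain aged for 48 h on glucose. The samples were chosen by the strain, medium and age in their labels: 4 samples on glucose (YPD) and 3 on galactose (YPGal), 7 of the 118 in the series. The mother enrichment program (MEP) of budding yeast uses an estradiol-activated Cre recombinase, made from the daughter-specific SCW11 promoter, to cut essential genes out of newborn daughters, so that founding mother cells age in batch culture without being outgrown. By the study's methods both groups carried the same alleles, which were Cre-EBD78 at HO, loxP-flanked UBC9 and CDC20, TOM70-GFP and RPL13A-mCherry on 1 of the homologues, and markers at ade2, his3, leu2, trp1 and ura3. Both received 1 µM estradiol, after 2 h on glucose and 3 h on galactose, in rich medium with 2% sugar, and mother cells were labelled with biotin before culture and purified afterwards on streptavidin beads. The cultures contain 1 strain background, and daughters that escape purification are part of each sample. The question the comparison addresses is how far the transcriptome of old cells differs when the sugar, and not its amount, is changed.

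Budding yeast prefers glucose. While glucose is present, the Mig repressors keep genes for other carbon sources and for respiration low, and the low-affinity hexose carriers are made in its place. Galactose enters through the permease Gal2 and is turned into glucose-phosphate by the Leloir enzymes Gal1, Gal7 and Gal10 and the phosphoglucomutase Pgm2. The activator Gal4 binds upstream of these genes, Gal80 holds it inactive, and Gal3, once bound to galactose, relieves that block. Cells on galactose ferment less and respire more than cells on glucose, and the Hap complex, whose activating subunit is Hap4, drives nuclear genes for the respiratory chain.

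Poly(A) RNA reads were counted on each open reading frame. Samples held between 6598992 and 9055149 counted reads on glucose and between 6561238 and 8552433 on galactose, over 6664 nuclear genes. Genes without any read numbered 166 to 272 per sample on glucose and 359 to 371 on galactose, and the spread of log2 levels (interquartile range) was 2.05 to 2.15 against 2.35 to 2.36. The 100 most abundant genes took 20.3% to 22.4% of the reads on glucose and 26.9% to 27.5% on galactose. Counted reads overlapped between the groups and were not tested. The other measures each separated the groups (exact permutation test, 2-sided, p = 0.0286, which is the lowest value 4 against 3 samples can give). Mating-type and meiotic genes, which should be low in mitotic diploids, were detected in every sample. The summed normalised reads of 6 MATa genes were 545 to 643 on glucose and 335 to 361 on galactose, of 4 MATalpha genes 755 to 963 and 433 to 482, and of 8 meiotic genes 906 to 946 and 576 to 647. For 5 genes that haploids of both mating types express they were 782 to 921 and 746 to 799, where the groups overlapped. For 12 genes that mark daughter cells they went the other way, from 14256 to 17058 on glucose to between 24660 and 30852 on galactose. None of these markers was at 0 reads in any sample. HO, 1 of the 5 genes of both haploids, is where this strain carries the Cre construct. Its reads therefore cannot be taken as haploid expression, though they are part of that sum. The sums precede quantile normalisation, and on that scale genes of low level ran lower on galactose. In the gene tests described below, none of the 6 MATa genes was called and 2 of the 4 MATalpha genes were lower. Of the 8 meiotic genes 2 were lower and 1 higher, and of the 5 genes of both haploids 1 was lower and 1 higher.

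Levels are given below in normalised reads, that is read counts scaled for sample depth. Unless stated otherwise they are listed in the order E30_1, E30_2, E34 and lane6854 for glucose and E34, E56 and lane6854 for galactose, these being the experiment or sequencing lane in the sample titles. Differences are galactose minus glucose on the log2 scale after quantile normalisation, with the standard error (SE) and the Benjamini-Hochberg adjusted p of limma, and a gene is called higher or lower on galactose when that p is under 0.01. Of 6006 genes tested, 1137 (18.9%) were called, 534 higher (8.89%) and 603 lower (10%). Counts for the gene lists below are to be read beside these shares. Of the higher genes 100, and of the lower genes 105, changed at least 2-fold. Leaving out galactose sample E34 left 643 calls and leaving out galactose lane6854 left 649, while 541 of the 1137 were called whichever of the 7 samples was left out. On the deposited scale the median difference ran with level, from −0.48 in the fifth of genes with the lowest levels to 0.25 in the fifth with the highest, and quantile normalisation brought these medians to 0.02 and −0.02. Directions of abundant genes are therefore stated on both scales where they differ. Whether groups overlap is judged on normalised reads, before quantile normalisation.

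Binding sites of Gal4 before genes of the galactose list are shown first. The Gal4 site is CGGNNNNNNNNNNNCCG and was searched on both strands in the 500 bases before each start codon in the R64 genome sequence (RefSeq). GAL10 and GAL1 are read in opposite directions from a shared gap of 668 bases on chromosome II, and 3 Gal4 sites lie there within 64 bases at chrII:278563-278626. They are printed here on the strand of GAL1, with sites before GAL7 (chrII:275698-275724, minus strand), GAL80 (chrXIII:171417-171443, plus strand) and GAL3 (chrIV:463141-463167, plus strand) on the strand of each gene, and the outer triplets of each site in capitals.
GAL10 to GAL1: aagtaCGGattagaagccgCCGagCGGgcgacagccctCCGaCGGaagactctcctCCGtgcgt
GAL7: gcgctCGGacaactgttgaCCGtgatc
GAL80: tttacCGGcgcactctcgcCCGaacga
GAL3: acgttCGGtccactgtgtgCCGaacat
Of all 6664 genes, 196 (2.94%) hold such a match in this window, and so do 10 of the 12 galactose genes described next. Of the 183 genes with a match that were tested, 35 (19.1%) were higher on galactose and 19 lower.

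Old cells on galactose expressed the galactose pathway at levels that made up a visible share of all their mRNA. GAL1, GAL10, GAL7 and GAL2 together took 2.65% to 2.98% of the reads in galactose samples and 0.0024% in each glucose sample. All 12 genes of the galactose list were higher on galactose, and none of their groups overlapped, where 46.8% of all genes had groups that did not overlap and 23.4% had every galactose sample above every glucose sample. GAL1, galactokinase (YBR020W, chrII:279021-280607), had 61.9, 57.7, 58 and 75.5 normalised reads on glucose and 82274, 86216 and 88618 on galactose, a difference of 10.27 ± 0.14 (adjusted p = 9.4e-13). GAL10, the epimerase (YBR019C), went from 19 to 26.3 normalised reads on glucose to between 64276 and 72494, a difference of 11.39 ± 0.14 (adjusted p = 7.3e-13). The permease gene GAL2 and the transferase gene GAL7 differed by 10.26 ± 0.14 and 9.47 ± 0.12.

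Regulators of the pathway were higher as well. GAL3, the galactose sensor (YDR009W, chrIV:463434-464996), had 111, 109, 111 and 118 normalised reads on glucose and 1851, 1767 and 1951 on galactose, a difference of 4.13 ± 0.082 (adjusted p = 3.4e-11). The inhibitor gene GAL80 differed by 1.07 ± 0.081 and GAL4 itself by 1.07 ± 0.15. PGM2, the phosphoglucomutase that joins the pathway to glycolysis, differed by 1.74 ± 0.24 and GCY1, a glycerol dehydrogenase with a Gal4 site before it, by 2.38 ± 0.25. In both, glucose sample lane6854 was the highest of the 4, with 2086 normalised reads of PGM2 against 911 to 1114 in the others and 1435 of GCY1 against 635 to 695, and it still lay below every galactose sample. MTH1, a corepressor of hexose carrier genes, was higher by 1.19 ± 0.10, the uracil permease gene FUR4 by 1.15 ± 0.10 and PCL10, a cyclin of the Pho85 kinase, by 1.11 ± 0.13.

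**Figure D1:**
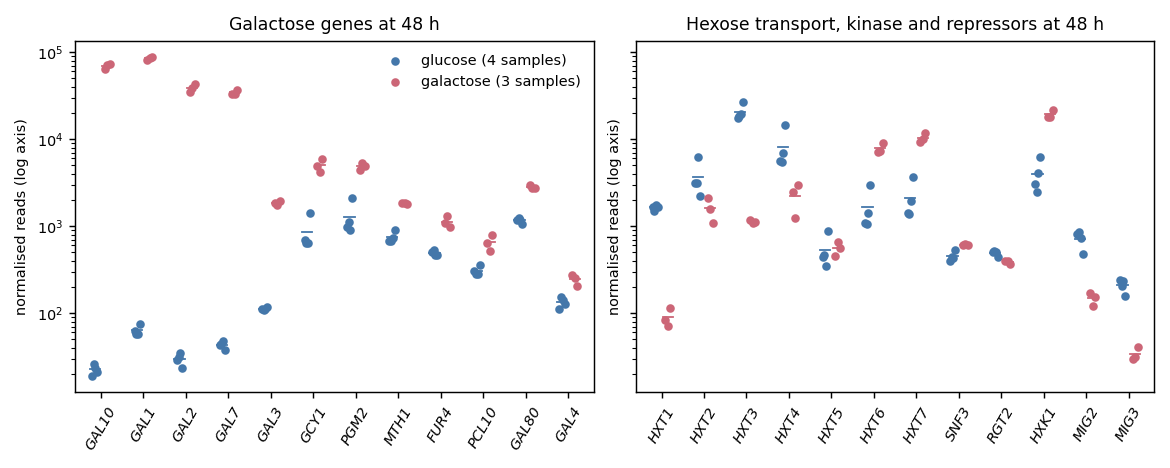
Normalised reads (log axis) of galactose genes (left) and of hexose transport, kinase and repressor genes (right) in each of 4 glucose and 3 galactose samples at 48 h, with a bar at each group's mean. GAL1 lies between 57.7 and 75.5 on glucose and between 82274 and 88618 on galactose, while HXT1 and HXT3 lie lower on galactose in every sample.

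Hexose carrier genes went in both directions. HXT1 and HXT3, carriers of low affinity made when glucose is abundant, were lower on galactose, as were HXT2 and HXT4, which have higher affinity, while HXT6 and HXT7, carriers of high affinity, were higher. Of 21 genes for transport and its sensing that were tested, 4 were higher and 5 lower, where 8.89% and 10% of all genes were. HXT3 (YDR345C, chrIV:1162957-1164660) had 17467, 18565, 19621 and 26393 normalised reads on glucose and 1185, 1091 and 1130 on galactose, a difference of −4.47 ± 0.094 (adjusted p = 5.0e-11). HXT1 (YHR094C, chrVIII:290913-292625) had 1640, 1513, 1766 and 1681 against 84.1, 71.7 and 116, a difference of −4.07 ± 0.13 (adjusted p = 5.2e-09). In both, the groups were far apart compared with the spread within them. HXT4 differed by −2.14 ± 0.36, with 1 glucose sample, lane6854, at 14525 normalised reads and the rest between 5391 and 6912.

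HXT6 and HXT7 are near-identical neighbours on chromosome IV, so that reads of one may have been counted for the other. They had similar differences of 2.05 ± 0.31 and 2.02 ± 0.30. HXT2 differed by −1.38 ± 0.30 (adjusted p = 0.0055), with 2223 to 6311 normalised reads on glucose and 1097 to 2128 on galactose, but was no longer called without glucose E30_1, glucose E30_2, galactose E56 or galactose lane6854. HXT5, a carrier of slow-growing cells, had 349 to 887 normalised reads on glucose and 454 to 663 on galactose and was not called (0.14 ± 0.26, adjusted p = 0.71). Among the sensors, SNF3, which responds to low glucose, had 399 to 533 on glucose and 607 to 623 on galactose (0.46 ± 0.10, adjusted p = 0.0062), a call lost on leaving out any sample but glucose lane6854. RGT2, the sensor of high glucose, had 440 to 512 against 367 to 394 (−0.31 ± 0.094, adjusted p = 0.026).

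The repressor genes MIG2 and MIG3, whose products act with Mig1 at glucose-repressed promoters, were both lower on galactose. MIG2 (YGL209W) had 807, 852, 740 and 476 normalised reads on glucose and 172, 122 and 152 on galactose, a difference of −2.13 ± 0.19 (adjusted p = 2.8e-05). MIG3 (YER028C) had 244, 203, 232 and 159 against 29.7, 31.1 and 41.3, a difference of −2.19 ± 0.19 (adjusted p = 1.8e-05). HXK1, the hexokinase made on other sugars than glucose, was 1.85 ± 0.26 higher (adjusted p = 4.2e-04), with 2489 to 6171 normalised reads on glucose and 18078 to 21421 on galactose. Of 13 hexose kinases and repressors 3 were higher and 3 lower, where 8.89% and 10% of all genes were. Only HXK1 stayed among the higher genes without galactose E34, E56 or lane6854 or without glucose E30_1 or E30_2.

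Genes of respiration were higher in old cells on galactose. In the tricarboxylic acid (TCA) cycle 15 of 18 genes were higher on galactose and none lower (median difference 0.65), in the respiratory chain 20 of 26 (0.80) and in ATP synthase 14 of 17 (0.72), where 8.89% of all genes were called higher. The median over all genes tested was −0.0025. CYC1, the main cytochrome c (YJR048W, chrX:526335-526664), had 610, 724, 474 and 654 normalised reads on glucose and 2220, 2035 and 2495 on galactose, a difference of 1.78 ± 0.13 (adjusted p = 9.1e-06). COX5A, the aerobic form of a cytochrome oxidase subunit, differed by 1.45 ± 0.12, RIP1, the iron-sulphur subunit of complex III, by 1.28 ± 0.14, and COX9, another cytochrome oxidase subunit, by 1.15 ± 0.12. The number of TCA genes called depended on 2 samples: it was 7 without galactose lane6854 and 8 without galactose E56. No TCA, respiratory chain or ATP synthase gene was called lower whichever sample was left out.

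In the TCA cycle, KGD2 of the 2-oxoglutarate dehydrogenase (YDR148C) had 1527, 1797, 1390 and 2080 normalised reads on glucose and 4470, 4759 and 5072 on galactose (1.21 ± 0.13, adjusted p = 8.7e-05). The succinate dehydrogenase genes SDH1 and SDH2 differed by 1.14 ± 0.16 and 1.06 ± 0.15. In ATP synthase, the largest differences were those of ATP20 (1.33 ± 0.11), INH1, which inhibits the enzyme when the membrane loses its potential (1.07 ± 0.13), and ATP19 (1.02 ± 0.098). PET9, the main ADP/ATP carrier of the inner membrane, was 1.01 ± 0.12 higher. Groups did not overlap for any of these genes.

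HAP4 (YKL109W, chrXI:232227-233891) had 1330, 1685, 1569 and 1950 normalised reads on glucose and 3619, 3501 and 4224 on galactose, a difference of 0.96 ± 0.12 (adjusted p = 2.1e-04). Of the 5 genes of the Hap list 3 were higher, of which HAP4 alone remained without galactose E34. HAP1, a haem-responsive activator, was lower (−0.41 ± 0.097, adjusted p = 0.0089), a call that was lost on leaving out any sample but glucose lane6854. The general import machinery of mitochondria was also higher, in 7 of 14 genes (median 0.42), where 8.89% of all genes were. Among them were TOM70, the tagged receptor (0.61 ± 0.090), the pore gene TOM40 (0.62 ± 0.086) and TOM6 (0.76 ± 0.11). Of 68 mitochondrial ribosomal protein genes 41 were higher, against the same 8.89%, and none lower (median 0.50). The number higher was 24 without galactose E34 and 25 without galactose lane6854. RSM26 and MRPL25 were examples, at 0.82 ± 0.086 and 0.85 ± 0.12. YHB1, the flavohaemoglobin that removes nitric oxide, had 874, 1078, 919 and 1243 normalised reads against 4652, 4374 and 4969, a difference of 1.94 ± 0.12 (adjusted p = 1.7e-06).

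**Figure D2:**
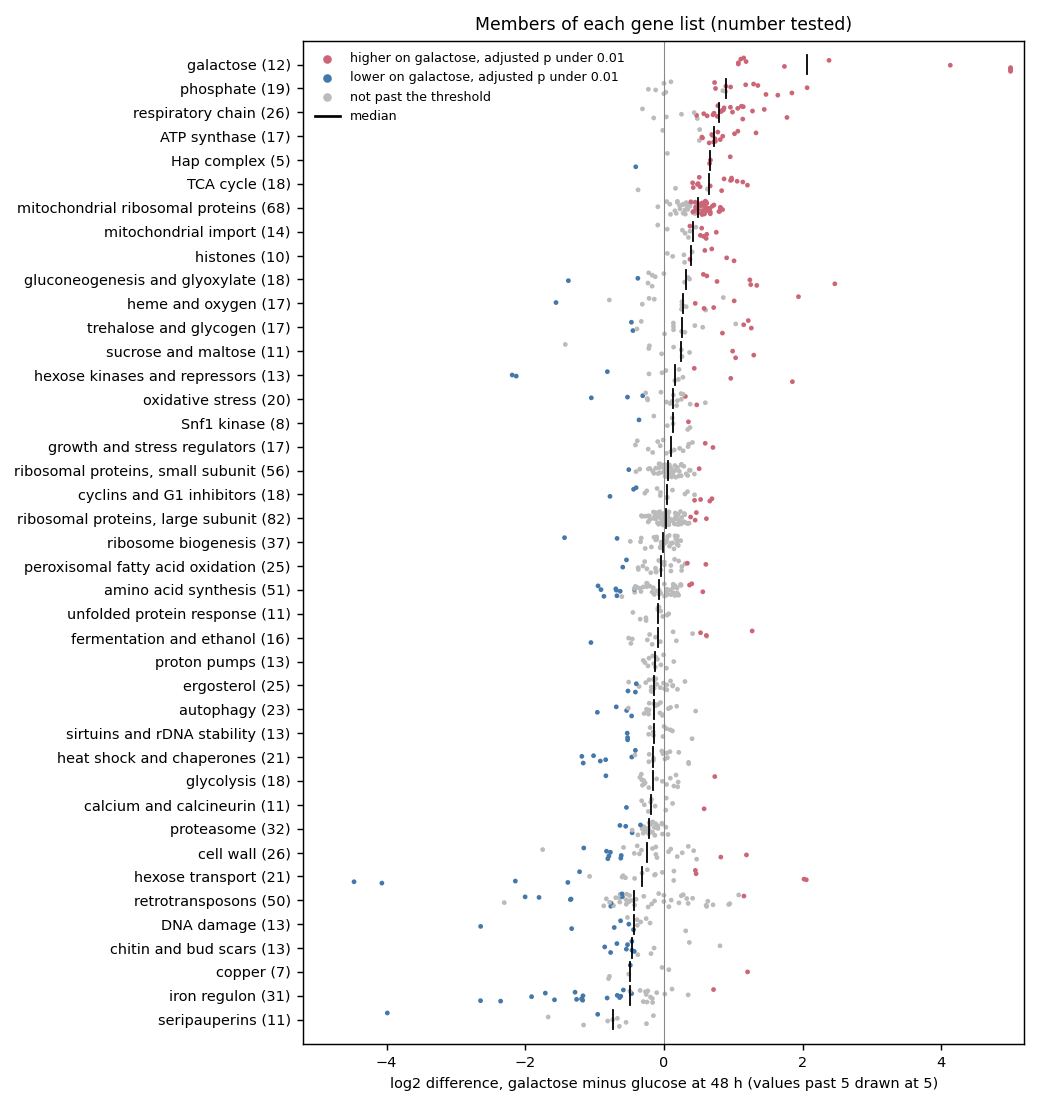
Log2 difference (galactose minus glucose at 48 h) of every tested member of each gene list other than the cell type markers, red where called higher on galactose, blue where called lower and grey where not called, with a bar at the list median; 4 galactose genes past 5 are drawn at 5. Galactose, phosphate and respiratory genes stand at the top, and iron, chitin and DNA damage genes near the bottom.

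Gluconeogenesis and the glyoxylate cycle, which build sugar from carbon compounds with fewer atoms, were partly higher. Of 18 genes 7 were higher and 2 lower, where 8.89% and 10% of all genes were. MLS1, malate synthase (YNL117W), had 105, 137, 105 and 181 normalised reads on glucose and 579, 699 and 659 on galactose, a difference of 2.47 ± 0.19 (adjusted p = 9.4e-06). ICL1, isocitrate lyase, differed by 1.25 ± 0.078 and FBP1, fructose-1,6-bisphosphatase, by 1.34 ± 0.16. CIT2, the peroxisomal citrate synthase, went the other way (−1.38 ± 0.17), with 2104 to 3025 normalised reads on glucose and 781 to 1242 on galactose. The activator genes ADR1 and CAT8 were higher by 0.57 ± 0.093 and 0.62 ± 0.14, the latter (adjusted p = 0.0074) only as long as no sample other than glucose E30_2 or lane6854 was left out. Without glucose E30_1, E30_2 or lane6854, or without any galactose sample, 1 gene of this list was lower in place of 2.

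Glycolysis itself was largely uncalled. Of 18 genes 1 was higher, PYK2, a pyruvate kinase that is used at low flux (0.73 ± 0.11), and 1 lower, PFK26, which makes the activator fructose-2,6-bisphosphate (−0.84 ± 0.12). The list median was −0.16 after quantile normalisation and 0.48 in the deposited values, so it has no direction that holds on both scales. Among 16 genes of fermentation and ethanol use, ALD4, the mitochondrial aldehyde dehydrogenase (0.61 ± 0.091), and ACH1, an acetyl-CoA hydrolase (1.27 ± 0.15), were among 3 that were higher, and PDC6, a minor pyruvate decarboxylase, was lower (−1.05 ± 0.15). That list's median also changed sign, from −0.085 to 0.26, and 3 of its genes were lower without glucose E30_1 and 2 without galactose E56. Of stores and other sugars, GSY1, a glycogen synthase, was higher by 1.26 ± 0.20, SUC2, invertase, by 1.03 ± 0.14, and the maltase gene MAL12, which has a near-identical copy, by 1.30 ± 0.19. Of 17 trehalose and glycogen genes 4 were higher and 2 lower, where 8.89% and 10% of all genes were. With 1 sample left out, 7 were higher and none lower without glucose lane6854, and 1 was higher without glucose E30_1, glucose E30_2 or any of the galactose samples, with at most 1 lower.

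Iron uptake genes were lower on galactose. The factor Aft1, which turns these genes on when iron is scarce, binds TGCACCC, and a match on either strand stands before 153 genes in all (2.30%) and before 21 of the 31 genes of the iron list. A site before each of FIT2 (chrXV:1059260-1059276), FIT3 (chrXV:1061329-1061345) and TIS11 (chrXII:416896-416912) is shown on the strand of its gene, the first plus and the other two minus, with the match in capitals, since these genes had differences among the greatest of the list.
FIT2: aacaaTGCACCCtaagt
FIT3: tttttTGCACCCtgttt
TIS11: caaaaTGCACCCacatt
Of the 31 iron genes 16 were lower and 1 higher (median −0.49), where 10% of all genes were called lower, and 15 of the 16 hold a match. Over all 144 tested genes with a match, 33 (22.9%) were lower and 8 higher.

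FIT3, a cell wall mannoprotein that retains iron siderophores (YOR383C, chrXV:1060441-1061055), had 2450, 3260, 2952 and 2194 normalised reads on glucose and 420, 628 and 378 on galactose, a difference of −2.64 ± 0.18 (adjusted p = 3.5e-06). FIT2 had 750, 891, 813 and 630 against 138, 144 and 126, a difference of −2.35 ± 0.12 (adjusted p = 6.0e-07). TIS11 (YLR136C), also called CTH2, which marks mRNAs of iron-using proteins for decay, had 373, 356, 413 and 378 against 113, 77.4 and 111 (−1.71 ± 0.13, adjusted p = 9.5e-06). FRE5, a reductase of the same family as the iron reductases, had 52.1 to 68.1 against 8.49 to 12.4 (−1.91 ± 0.22). In none of the 4 did the groups overlap. The gene of the list that was higher was GRX4, a glutaredoxin that senses iron, and FET3 and FTR1, the high-affinity oxidase and permease, were not called.

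Phosphate genes were higher on galactose. Pho4, the activator of the response to low phosphate, binds CACGTG, which stands before 400 genes in all (6.00%) and before 13 of the 19 phosphate genes. A site before each of PHO5 (chrII:431194-431209), PHO84 (chrXIII:26204-26219) and SPL2 (chrVIII:375237-375252), all on the minus strand, is shown with the match in capitals. The motif reads the same on both strands.
PHO5: actcaCACGTGggact
PHO84: tccagCACGTGgggcg
SPL2: gtacgCACGTGggcga
Of the 19 phosphate genes 11 were higher and none lower (median 0.89), where 8.89% of all genes were higher, and 10 of the 11 hold a match. Among all 367 tested genes with a match, 49 (13.4%) were higher and 42 lower, where 8.89% and 10% of all genes were. PHO84, the high-affinity phosphate carrier (YML123C, chrXIII:24037-25800), had 4069, 5456, 5167 and 2924 normalised reads on glucose and 18272, 20633 and 17468 on galactose, a difference of 1.64 ± 0.19 (adjusted p = 1.0e-04). PHO5, the secreted acid phosphatase, differed by 1.85 ± 0.14, with 813 to 1102 against 3075 to 4658 normalised reads. SPL2, which restrains low-affinity phosphate uptake, differed by 2.07 ± 0.25, with 78.4 to 161 against 377 to 547. At log phase neither PHO84 nor SPL2 differed by a called amount (0.22 ± 0.25 and 0.24 ± 0.26), as described further below.

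**Figure D3:**
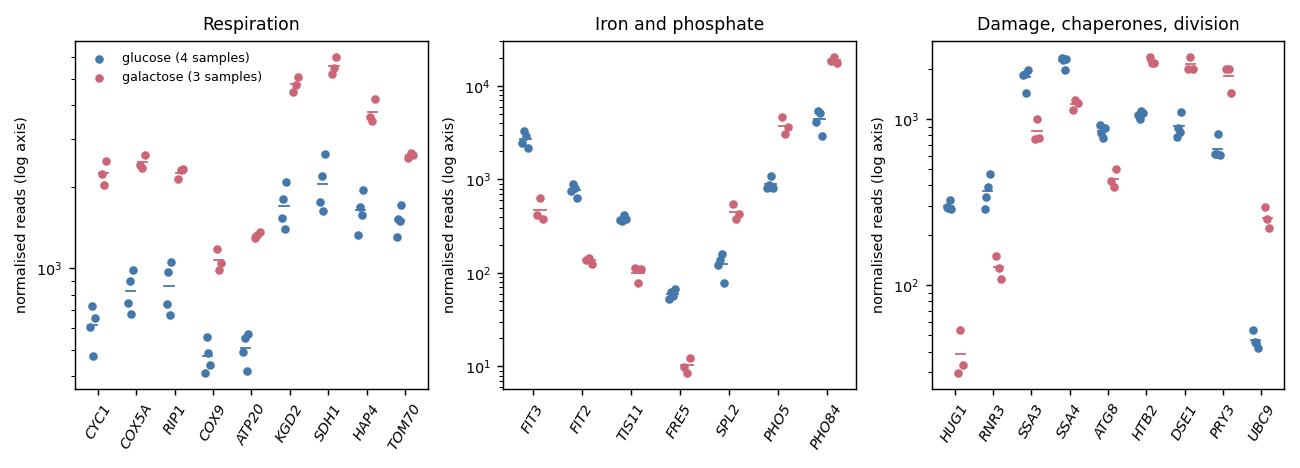
Normalised reads (log axis) in each of 4 glucose and 3 galactose samples at 48 h for genes of respiration (left), iron and phosphate (middle), and DNA damage, chaperones, autophagy, histones and daughter cells, with UBC9 (right), and a bar at each group's mean. CYC1 lies between 474 and 724 on glucose and between 2035 and 2495 on galactose, FIT3 between 2194 and 3260 and between 378 and 628.

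Genes that respond to DNA damage were lower on galactose in 6 of 13 cases, where 10% of all genes were lower, and none was higher (median −0.44). HUG1, an inhibitor of ribonucleotide reductase induced by damage (YML058W-A, chrXIII:158760-158966), had 296, 293, 328 and 287 normalised reads on glucose and 29.7, 53.8 and 33.1 on galactose, a difference of −2.64 ± 0.17 (adjusted p = 3.5e-06). RNR3, the damage-induced large subunit of that enzyme, had 286 to 467 against 109 to 151 (−1.33 ± 0.17), RNR4 differed by −0.72 ± 0.11 and the recombination gene RAD54 by −0.62 ± 0.074. Heat shock genes were lower in 7 of 21 cases, against the same 10%, with a median of −0.15 that was 0.08 in the deposited values. SSA3 and SSA4, the inducible Hsp70 chaperones, differed by −1.18 ± 0.14 and −1.01 ± 0.095 on both scales in the same direction. Without 1 sample, the number of lower heat shock genes was 2 (galactose E34 or lane6854), 3 (glucose E30_2) or 4 (glucose E30_1), and the number of damage genes at least 4.

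Genes of the chitin layer and bud scars, which mother cells gain with each division, were lower in 8 of 13 cases and higher in none (median −0.46). Of all genes 10% were lower. Without galactose E34, 5 of these 13 were lower. CHS3, the main chitin synthase, differed by −0.77 ± 0.10, CDA1, a chitin deacetylase, by −0.85 ± 0.099 and BUD8, a landmark of the distal pole, by −0.68 ± 0.071. Of 26 cell wall genes 2 were higher and 7 lower, where 8.89% and 10% of all genes were, with 4 lower without any of the galactose samples in turn. CWP1, a mannoprotein of the birth scar, was higher by 1.19 ± 0.11 (1358 to 1741 against 3848 to 4784 normalised reads), and CCW14, an inner layer mannoprotein, was lower (−1.16 ± 0.14). Of 23 autophagy genes 4 were lower and none higher, where 10% of all genes were lower, and among the 4 were ATG8, the ubiquitin-like protein of the autophagosome (768 to 917 against 391 to 499, −0.96 ± 0.10), and ATG17 (−0.69 ± 0.092).

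Histone genes were higher in 5 of 10 cases, where 8.89% of all genes were. In normalised reads all 10 had every galactose sample above every glucose sample, as 23.4% of all genes did. So did 64 of 82 genes of the large ribosomal subunit, whose median difference was 0.03 after quantile normalisation. HHF1 and HHT1, among the 10, were not called (0.05 and 0.13). HTA2 and HTB2, which encode histones H2A and H2B and share a promoter, had 1201 to 1576 and 1007 to 1113 normalised reads on glucose and 3009 to 3554 and 2164 to 2363 on galactose, differences of 1.01 ± 0.11 and 0.91 ± 0.076. The linker histone gene HHO1 differed by 0.69 ± 0.079. Of 18 cyclins and G1 inhibitors 4 were higher and 3 lower, where 8.89% and 10% of all genes were. Among these cyclins CLN1 (0.66 ± 0.098) and CLB1 (0.69 ± 0.11) were higher and CLB4 was lower (−0.78 ± 0.096). Without glucose E30_1, E30_2 or lane6854, or galactose E34 or E56, 2 were higher, and without any galactose sample 1 was lower.

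Genes that mark daughter cells were mostly higher on galactose. Of the 12 genes 9 were called higher and none lower (median 0.89), where 8.89% of all genes were called higher. PRY3, a cell wall protein of daughters, differed by 1.35 ± 0.14 and DSE1, a daughter cell wall separation gene, by 1.11 ± 0.12. UBC9, the SUMO-conjugating enzyme gene that Cre cuts out (YDL064W, chrIV:337487-338070), had 54.2, 45.5, 45.2 and 41.8 normalised reads on glucose and 294, 249 and 221 on galactose, a difference of 2.76 ± 0.15 (adjusted p = 8.8e-07). CDC20, the other gene built to be cut, had 1627 to 1827 and 1635 to 1727 and was not called (−0.18 ± 0.080, adjusted p = 0.10). For the marker genes, a different number of daughter cells and a different level per cell, in mothers or in daughters, cannot be told apart in these bulk samples. UBC9 is not such a marker, since Cre is made to cut it out of daughters. Whether the sugars differ in how often it is cut was not tested. What part daughter cells have in the histone, cyclin or other differences was not tested.

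Protein synthesis genes of the cytosol were mostly uncalled. Of 82 genes of the large ribosomal subunit 4 were higher, and of 56 of the small subunit 1 was higher and 1 lower; the medians were 0.03 and 0.06, and 0.46 and 0.53 in the deposited values. RPL8A was the clearest (0.61 ± 0.079, 2944 to 3416 against 6330 to 6449 normalised reads), though many such genes have a near-identical copy. The large subunit had 1 higher gene without galactose E34, 2 without galactose E56, galactose lane6854 or glucose E30_2, and 2 lower genes without glucose lane6854. The small subunit had 3 lower genes without glucose lane6854, 2 higher and none lower without glucose E30_1 or E34, and none called without glucose E30_2 or any galactose sample. In ribosome biogenesis 2 of 37 genes were called, both lower: IFH1, the coactivator of ribosomal protein genes (−1.43 ± 0.092), and RRN3, a polymerase I factor (−0.67 ± 0.078). Of 50 retrotransposon reading frames that passed the filter 8 were lower and 1 higher, where 10% and 8.89% of all genes were. YMR045C was at −1.80 ± 0.23 and YJR027W at −1.35 ± 0.17, but these copies are nearly identical and their reads cannot be placed with certainty. Without galactose lane6854, 4 retrotransposon frames were lower.

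Other genes had large differences. OPT2, an oligopeptide transporter with a role in lipid asymmetry of membranes (YPR194C, chrXVI:924304-926937), had 75.3, 83, 65.9 and 247 normalised reads on glucose and 1410, 1429 and 1535 on galactose, a difference of 3.96 ± 0.38 (adjusted p = 3.9e-05). RSB1, a transporter of sphingoid bases (YOR049C), had 121, 116, 131 and 193 against 12.4, 21.7 and 11.4, a difference of −2.72 ± 0.26 (adjusted p = 3.4e-05). Both were chosen as among the largest rises and falls without overlap between groups. PAU4, of the seripauperins, had 21.1 to 31.5 on glucose and 0.849 to 2.47 on galactose (−3.99 ± 0.54). The galactose values lie near the level given to 0 reads (0.9 of 1 read), so the size of that difference is uncertain. PAU4 also belongs to a family of near-identical copies, of which 11 were tested and 2 were lower. Apart from these, YJR005C-A, a reading frame of unknown function, differed by −2.85 ± 0.38.

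Genes on the right of the ribosomal DNA on chromosome XII were lower on galactose as a block. The 303 genes tested beyond the last rDNA gene, at position 489469, had median deviations from the 7-sample mean of 0.20, 0.20, 0.20 and 0.11 on glucose and −0.21, −0.18 and −0.25 on galactose. The groups differed by −0.39 (exact permutation test, 2-sided, p = 0.0286, again the lowest possible), and the value was −0.41 within experiment E34 and −0.36 within lane6854. Of these genes 122 (40.3%) were called lower and 6 higher, where 10% of all genes were lower. On the other chromosomes the median difference lay between −0.055 and 0.050, and on the rest of chromosome XII it was −0.12, with 37 of 217 genes lower. Glucose sample lane6854 was the lowest of the glucose group, and still above all galactose samples.

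Several genes named above lie in that stretch: PAU4, FBP1, HAP1, CDA1, BUD8, CCW14, ATG17, IFH1 and CLB4, and also SIR3, a silencing protein (−0.52 ± 0.075). All but FBP1 were lower, and for these the position and the function of the gene cannot be told apart. Over all 303 genes tested in the stretch, the median difference was −0.087 in log phase cells and −0.18 after 24 h. On the other chromosomes the medians lay between −0.18 and −0.028 at log phase, so the stretch did not stand apart there. After 24 h those medians lay between −0.12 and −0.014. For the stretch, the value at 48 h is given above. The median of the stretch was −0.49 in the media shift cultures described below. Of the 8 lower chitin and bud scar genes 3 lie there (CDA1, BUD8 and CHS5), as does 1 of the 4 lower autophagy genes.

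The sugar difference at 48 h was set against that at log phase and at 24 h in one limma fit of 20 samples. By the study's methods, log phase cells were taken from culture without biotin label, before estradiol, and so were not purified mothers. The study says that many of them are newborn daughters, and reports equivalent overall changes with young mothers instead. Age and this difference in cell population cannot be told apart in the comparison with log phase. The value given is the difference of differences, which is positive where the galactose minus glucose value is greater at 48 h. Against log phase, 1449 of 5924 genes (24.5%) passed, 726 upwards (12.3%) and 723 downwards (12.2%). In log phase cells 1887 genes (31.9%) differed between sugars, 843 higher (14.2%) and 1044 lower (17.6%) on galactose, and at 48 h 1527 in this fit, of which 465 were called at both ages in the same direction and 122 in opposite directions. Of the 1449, 1035 had opposite signs at the 2 ages, 296 the same sign and a smaller size at 48 h, and 118 the same sign and a larger size.

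Respiratory genes differed between sugars at log phase and at 48 h, and by less at 48 h. The median difference of respiratory chain genes declined from 2.30 (log phase) through 1.50 (24 h) to 0.88 (48 h), and 24 of 26 had a smaller difference at 48 h than at log phase by the test. By the same test 12.2% of all genes moved down and 12.3% up. SDH1 went from 396 to 450 normalised reads at log phase on glucose, and 5580 to 9157 on galactose, to 1624 to 2651 and 5201 to 6040 at 48 h, a difference of differences of −2.56 ± 0.24 (adjusted p = 5.2e-07). For CYC1 it was −0.95 ± 0.19 (adjusted p = 7.5e-04) and for HXK1 −3.05 ± 0.47 (adjusted p = 7.8e-05). Of the 12 galactose genes 6 had a smaller difference at 48 h, GAL3 for example by −1.16 ± 0.15 (adjusted p = 1.4e-05), and 1 a larger one, GAL1, whose sign turned to −0.87 in the deposited values. GAL1 itself had 137332 to 155660 normalised reads on galactose in log phase cells, 92078 to 100133 after 24 h and 82274 to 88618 after 48 h.

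Several genes of iron and phosphate uptake, with HTB2, PRY3, YHB1 and UBC9, were the reverse: the sugars differed little at log phase and more at 48 h. FIT3 had 216 to 528 normalised reads on glucose and 287 to 1078 on galactose at log phase, 955 to 1682 and 274 to 359 after 24 h, and the separate ranges given above after 48 h. Its difference of differences was −3.07 ± 0.52 (adjusted p = 1.8e-04), and that of TIS11 was −1.79 ± 0.23 (adjusted p = 1.7e-05). PHO84 fell on glucose from 21484 to 33427 at log phase to 2924 to 5456 at 48 h, against 18427 to 36151 and 17468 to 20633 on galactose, a difference of differences of 1.54 ± 0.34 (adjusted p = 0.0018). For SPL2 it was 2.13 ± 0.36 (adjusted p = 2.0e-04), for YHB1 1.90 ± 0.15 (adjusted p = 7.6e-08), for HTB2 1.00 ± 0.11 (adjusted p = 3.4e-06) and for PRY3 1.64 ± 0.21 (adjusted p = 1.2e-05). By list, 13 of 31 iron genes moved down and 11 of 19 phosphate genes moved up, where 12.2% and 12.3% of all genes did. UBC9 had 451 to 552 and 423 to 541 normalised reads at log phase, so its difference arose in the aged cultures (3.30 ± 0.28, adjusted p = 2.6e-07).

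Among the largest changes were losses of a log-phase difference. TMA10, a ribosome-associated protein made under stress (YLR327C), had 28.3 to 65.2 normalised reads on glucose and 2923 to 5971 on galactose at log phase, but 1985 to 2523 and 2057 to 3016 at 48 h, where the groups overlapped (−5.98 ± 0.37, adjusted p = 1.4e-08). DSF1, a mannitol dehydrogenase, POT1, the peroxisomal thiolase, and RGI2, which is linked to respiratory growth, changed in the same way, by −5.23 ± 0.39, −5.18 ± 0.46 and −5.13 ± 1.07. HXT1 had 0.733 to 4.84 normalised reads on galactose at log phase and 71.7 to 116 at 48 h, so its difference shrank by 4.69 ± 0.67 (adjusted p = 3.9e-05). The log phase values lie near the level given to 0 reads (0.9 of 1 read), so the size of this change is uncertain. BSC1 and its neighbour PRM7 also lost a lower level on galactose (4.58 ± 0.65 and 3.52 ± 0.57). YDR222W, of unknown function, was lower on galactose at log phase (−2.49 ± 0.36) and higher at 48 h (1.28 ± 0.33 in this fit), a change of 3.77 ± 0.49 (adjusted p = 1.4e-05). Its call at 48 h in the 7-sample fit was lost without glucose E30_1, glucose E34, galactose E34 or galactose lane6854.

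**Figure D4:**
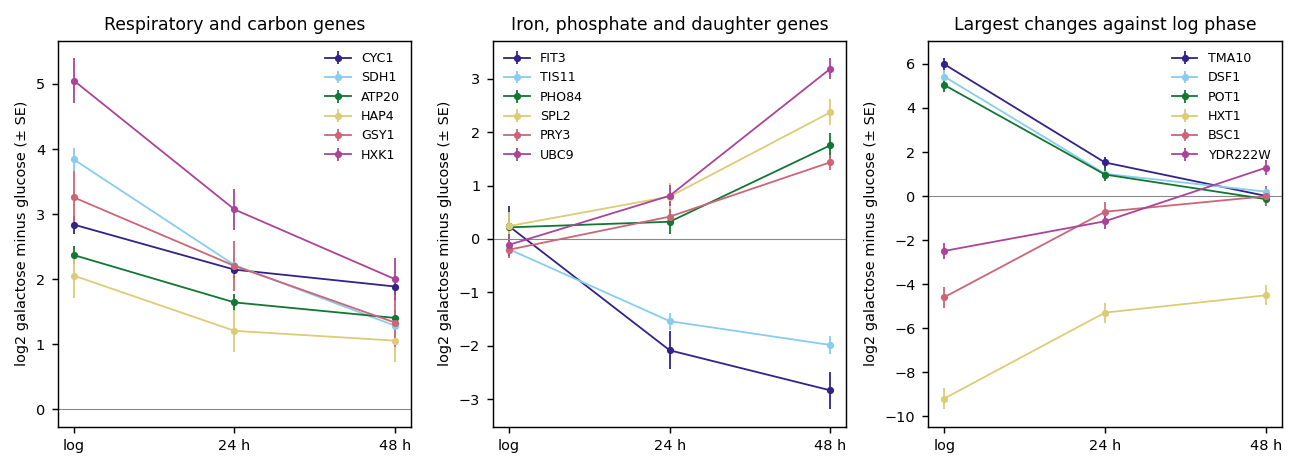
Galactose minus glucose log2 difference (± SE, limma fit of 20 samples) at the 3 ages (log phase, 24 h, 48 h) for genes of respiration and carbon use (left), iron, phosphate and daughter genes with UBC9 (middle) and the genes with the largest change against log phase (right). SDH1 and HXK1 decline towards 48 h, FIT3 and TIS11 go from near 0 to below −1.5, and TMA10 goes from 5.99 to 0.01.

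Between 24 h and 48 h the sugar difference changed in far fewer genes, 87 of 5924 (1.47%), of which 49 moved up (0.827%) and 38 down (0.641%). At 24 h itself 713 genes (12%) differed between sugars, 380 higher (6.41%) and 333 lower (5.62%) on galactose. In the deposited values 258 passed, 207 upwards and 51 downwards, so the balance of directions depends on the scaling. The count also depends on which sample is left out: it was 16 without galactose E34, 29 without galactose E56, 38 without galactose lane6854 and 135 without glucose E34. UBC9 (2.38 ± 0.27, adjusted p = 2.7e-04), HTB2 (0.91 ± 0.11, adjusted p = 2.7e-04), HTA2 (0.97 ± 0.16), CWP1 (1.33 ± 0.17), PRY3 (1.02 ± 0.20), RPL8A (0.51 ± 0.10) and YDR222W (2.43 ± 0.47) moved up. GCY1 (−1.65 ± 0.31), SUC2 (−0.99 ± 0.20), RNR4 (−0.67 ± 0.12) and BUD8 (−0.61 ± 0.13) moved down. For CWP1 the groups at 24 h were 1670 to 2278 normalised reads on glucose and 1910 to 2129 on galactose, and those at 48 h did not overlap. By list, 4 of 19 phosphate genes and 2 of 10 histone genes were among the genes that moved up, where 0.827% of all genes were.

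A separate set of cultures allowed the same sugars to be compared again in other samples. In these media shift cultures, 3 on each sugar, cells were aged for 24 h, moved to fresh medium of the same sugar and harvested at 48 h as the study's methods describe, although the labels give them no such age. Of 6055 genes 2060 (34%) differed, 961 higher (15.9%) and 1099 lower (18.2%) on galactose. Of the 1137 genes called at 48 h without a shift, 1002 (88.1%) were called here in the same direction, which is 48.7% of the 2057 called here among genes tested in both, and none in the opposite direction. The sign was the same for 1136 of the 1137, and for 83.3% of all 5989 genes tested in both. Across these genes, which are not independent replicates, the differences had a Pearson r of 0.89.

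The groups of genes described above were met again there. All but 1 of the 12 galactose genes were called higher, the exception being GAL80 (0.37, adjusted p = 0.013), and 23 of 26 respiratory chain genes, 16 of 18 TCA genes and 62 of 68 mitochondrial ribosomal protein genes were higher with none lower. In these cultures 15.9% of all genes were higher and 18.2% lower. Of 31 iron genes 23 were lower, with FIT3 at 3384 to 4568 normalised reads on glucose and 377 to 828 on galactose. Of 19 phosphate genes 10 were higher, but the median was 0.46, against 0.89 without a shift. GAL1 had 81.4 to 357 normalised reads in the glucose cultures and 83459 to 87253 in the galactose cultures. HUG1 had 379 to 440 and 36.7 to 47.3, and UBC9 23.4 to 102 and 246 to 261.

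**Figure D5:**
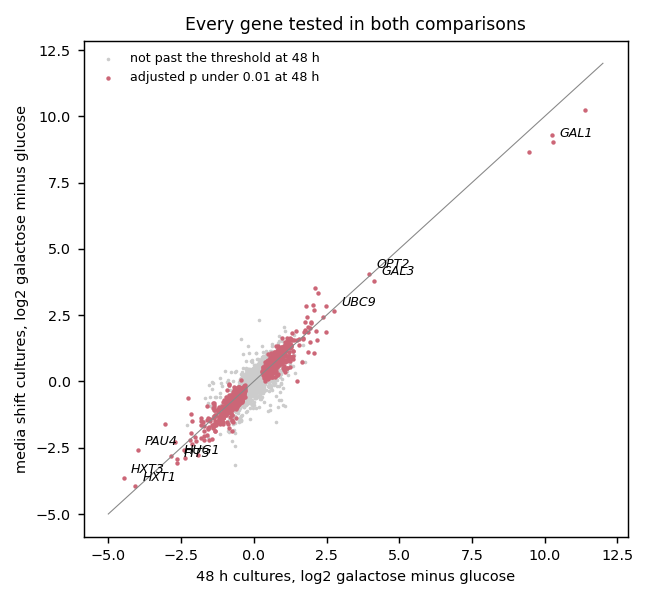
Galactose minus glucose log2 difference of 5989 genes in the 48 h cultures (horizontal axis) and in the media shift cultures (vertical axis), with genes called at 48 h in red and a line of equal values. Of the 1137 called genes 1136 have the same sign on both axes.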

How the data were processed

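Poly(A) RNA was sequenced in single-end reads from a stranded kit. The authors trimmed reads with Trim Galore 0.6.6, aligned them with HISAT2 2.1.0 to R64, counted reads on the strand opposite each open reading frame in SeqMonk, and deposited log2 values scaled by size factors within each table. How reads with several matches were treated is not given in the sources used here. The authors' own tests used DESeq2 on quantile-normalised data. All low values were whole reads within 0.02 (100%), with genes of 0 reads at 0.9 of 1 read. Mitochondrial genes (28) and other strains, sugars and sorted cells were not used here. The RefSeq annotation of R64 held 5988 of the identifiers, and 5980 had identical coordinates there.

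Log2 values were quantile-normalised and tested with limma 3.58.1 in R 4.3.3, leaving out genes whose mean log2 was under 2, with BH adjustment and a threshold of 0.01; other steps used Python 3.11.15. The scripts were tested on simulated data. No replicates were identical (r 0.985 to 0.992). The study calls its samples biological replicates, and the labels do not say how cultures were shared, so p-values measure the spread between these samples. Titles name 2 experiments or lanes that hold both sugars, E34 and lane6854; deviations from group means correlated by 0.115 and 0.385 within them, against a mean of −0.0491 for other pairs. E30_1 and E30_2 (glucose, lane of E34) and E56 (galactose, another lane) have no partner.

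The samples, gene lists and genes to name were chosen with earlier results of these data known. Genes to name (172) were the 6 largest called rises and falls without overlap, up to 4 largest called members of each list, the galactose genes, HXT1 to HXT7 and set regulators and tagged or cut genes, and the 4 largest called changes of each sign against log phase, without dubious frames and retrotransposons in the first and last of these. FET3, FTR1, GRX4, CHS5 and HAP1 were named after their values were seen. Alternatives were the deposited scale, low-value filters, a block or lane term, other samples in the fit, limma voom on recovered reads, thresholds and leaving out each sample.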

Additional observations from a re-analysis of the deposited data

Results flagged for a closer look

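In 4 genes and 1 regional value, 1 glucose sample stood apart from the other 3. The values in brackets are the gap to the nearest sample as a share of the group's range. Sample lane6854 was high for GCY1 (0.888) and ACH1 (0.86) and low for RGT2 (0.924) and for the median of chromosome XII right of the rDNA (0.915), and E34 was high for PRY3 (0.92). Chance marks about 1 group in 20, and 108 genes and 9 other values were looked at.

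The sugar difference changed between ages by a test of the change itself in 1449 genes against log phase and in 87 against 24 h. Against log phase, the change on the log2 scale was −5.98 for TMA10, −5.23 for DSF1, −5.18 for POT1, −5.13 for RGI2, −3.07 for FIT3, −3.05 for HXK1, −2.56 for SDH1, −1.79 for TIS11, −1.16 for GAL3 and −0.95 for CYC1. It was 4.69 for HXT1, 4.58 for BSC1, 3.77 for YDR222W, 3.52 for PRM7, 3.30 for UBC9, 2.13 for SPL2, 1.90 for YHB1, 1.64 for PRY3, 1.54 for PHO84, 1.44 for CWP1 and 1.00 for HTB2. Against 24 h it was −1.65 for GCY1, −0.99 for SUC2, −0.67 for RNR4 and −0.61 for BUD8. It was 2.43 for YDR222W, 2.38 for UBC9, 1.33 for CWP1, 1.02 for PRY3, 0.97 for HTA2, 0.91 for HTB2 and 0.51 for RPL8A.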

How the results depend on the processing

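For galactose minus glucose at 48 h, 116 genes were called from E34 and lane6854 alone (2 against 2 samples), 205 with a 2-fold minimum and 1978 at an adjusted p of 0.05. Leaving out 1 sample gave 643 to 1123 calls, the deposited scale 1620 (843 higher, 777 lower), no filter 772 and a lane term 992. With the experiment or lane as a replicate block 1456 were called at 48 h, 1412 against log phase, 126 against 24 h and 1945 in the shift, and the mean within-pair difference of chromosome XII right of the rDNA was −0.388. At 48 h the block fit takes the sugar difference from E34 and lane6854 alone, since E30_1, E30_2 and E56 have no partner. Against log phase the 2-fold minimum left 507, the threshold of 0.05 gave 2333 and leaving out 1 sample 1099 to 1472. Against 24 h these were 20, 404 and 16 to 135, and the deposited scale gave 258. In the shift (galactose to galactose minus glucose to glucose) the 2-fold minimum left 317 and leaving out 1 sample 1464 to 2084. The chromosome XII difference lay between −0.406 and −0.371 without 1 sample, where the smallest possible p is 0.0667 or 0.1. The balance of calls at 48 h turned from more lower (534 higher, 603 lower) to more higher genes on the deposited scale. Of 108 named genes followed through these alternatives none changed direction at 48 h, while the list medians named in the results and the change of GAL1 against log phase did so in the deposited values. The cause of these changes was not tested.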
